A study of Mus musculus with 8 samples.

Results

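Rxra and 9 other nuclear receptor genes, 10 of the 56748 gene identifiers in the count tables, were followed through 8 poly-A RNA-seq libraries of mouse bone marrow derived mast cells (BMMCs). The group holds the retinoid X receptors Rxra and Rxrb, the retinoic acid receptors Rara and Rarg, the liver X receptors Nr1h2 (LXR beta) and Nr1h3 (LXR alpha), the peroxisome proliferator-activated receptors Pparg and Ppard, the vitamin D receptor Vdr and the glucocorticoid receptor Nr3c1. Rxra was selected on its change between the groups compared here, and the other receptors were listed by function beside it with results of these data known. The contrast values of Rxra are therefore a description, given without a test.

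The cells were grown from marrow of C57BL/6 mice aged 6 to 8 weeks and kept with IL-3 for at least 4 weeks. The 4 Mettl3-RNP libraries, labelled Mettl3 KO, came from cells transfected with Cas9 ribonucleoproteins against Mettl3, the catalytic subunit of the complex that places N6-methyladenosine on mRNA. The 4 Pulsed libraries, labelled Mettl3 WT, came from mock-transfected cells. The authors' RNA-seq methods do not say whether the mock transfection held a Cas9 protein or a guide. All 8 cultures were of C57BL/6 origin, and a transfected culture is a pool that can still hold unedited cells. Both groups carry the replicate numbers 1 to 4, and the series text names 4 mice without saying which number is which mouse. Where a number is not tied to a mouse, the p-values measure only the spread between these libraries.

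Nuclear receptors are transcription factors that bind small lipophilic ligands and recruit coactivators or corepressors to DNA. RXRs are the shared dimer partners of RAR, LXR, PPAR and the vitamin D receptor, so their abundance is common to retinoid, oxysterol, fatty acid and vitamin D responses. The glucocorticoid receptor instead acts mainly as a homodimer and is the target of the glucocorticoid drugs that restrain mast cell activation.

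Libraries held 32643260 to 45324826 counts. Mettl3 was at 25.9, 24.5, 11.1 and 26.5 CPM (counts scaled to a common library size) in Pulsed 1 to 4 and at 12.3, 9.15, 4.88 and 9.20 CPM in Mettl3-RNP 1 to 4. It was lower in every pair, by a log2 difference of -1.30 (SE 0.109, adjusted p = 0.00543, edgeR quasi-likelihood test with the replicate number as a block). Summed mast cell markers ran from 43352 to 61047 CPM in Pulsed and from 38425 to 54136 CPM in Mettl3-RNP, and basophil markers from 2241 to 3317 and from 1793 to 2413 CPM. Macrophage markers summed to 7.23 to 11.7 and 6.40 to 30.5 CPM, with 7 of 10, Csf1r and Cd14 among them, under 1 CPM in every library. Neutrophil markers did not exceed 0.397 CPM, with S100a8, S100a9, Elane and Camp at 0 in all 8 libraries. The sums of the other lists were lower in Mettl3-RNP with no overlap, at 4.64 to 8.65 against 2.25 to 3.98 CPM for eosinophil markers, with Epx and Ear1 at 0, and at 4.87 to 6.55 against 2.82 to 4.01 CPM for lymphoid and erythroid markers, with Ms4a1 at 0. Of single genes tested, 3.24% had groups that did not overlap. Only 4 of the 8 lymphoid and erythroid markers were tested, 2 had a log2 difference above 0, and none passed the edgeR test. Among the markers, Cpa3 (log2 difference -0.37) of 10 mast cell genes tested, Ifitm1 (-0.60) and Il18rap (-0.79) of 5 basophil genes, Adgre1 (-1.13) of 4 macrophage genes and Siglecf (-1.497) of 2 eosinophil genes passed the edgeR test as lower, and none passed as higher, against 1.39% and 2.35% of all genes. Of the 10 mast cell markers 6 had a log2 difference above 0, with a median of 0.10. Cd68, which makes up most of the highest macrophage sums, was at 5.0, 3.16, 6.55 and 3.26 CPM in Pulsed 1 to 4 and 3.71, 23.7, 11.1 and 28.2 CPM in Mettl3-RNP 1 to 4, with a log2 difference that did not pass (1.63, 3 of 4 pairs higher, adjusted p = 0.142, edgeR). The part of these cell types in any receptor value was not tested, and in bulk RNA fewer cells of a type cannot be told apart from less RNA per cell.

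In resting BMMCs the group ran from strongly expressed receptors to transcripts at the edge of detection. Levels of different genes were compared per length, as CPM divided by kilobases of exon (RPKM), in the Pulsed libraries. Nr1h2, which senses oxysterols, stood at 24.1 ± 2.33 RPKM and Nr3c1 at 19.5 ± 2.52 RPKM (SD, n = 4). Nr1h2 was above Nr3c1 in 4 of 4 Pulsed libraries, although their ranges overlapped. Rxrb followed at 10.99 ± 2.43 RPKM and lay under Nr3c1 in every library with no overlap.

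The ranges of the next 3 receptors overlapped with that of Rxrb and with each other. Rara was at 10.4 ± 5.31 RPKM, under Rxrb in 3 of 4 Pulsed libraries but in only 1 of 4 Mettl3-RNP libraries. Rarg was at 7.999 ± 3.26 RPKM, and Rara exceeded it in only 1 of 4 Pulsed libraries. Ppard, the broadly expressed PPAR, was at 6.65 ± 0.93 RPKM and under Rarg in 3 of 4. With the longest annotated transcript as the length, Ppard was at 13.4, Rara at 18.6, Rxrb at 12.9 and Rarg at 12.5 RPKM, so the order of these genes depends on the length used.

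Rxra itself was at 1.75 ± 0.53 RPKM, below Ppard and above Vdr in every library with no overlap. Vdr, at 0.22 ± 0.09 RPKM, and Nr1h3, at 0.07 ± 0.04 RPKM, were each far under Rxra and Rxrb and exchanged order in 1 of 4 libraries. Pparg gave 1 count over the 4 Pulsed libraries and 5 counts over the 4 Mettl3-RNP libraries, where 3 counts in 1 library would be 0.0699 to 0.100 CPM. At this depth no group difference in Pparg was detectable, and it was the only member that did not enter the test.

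**Figure D1:**
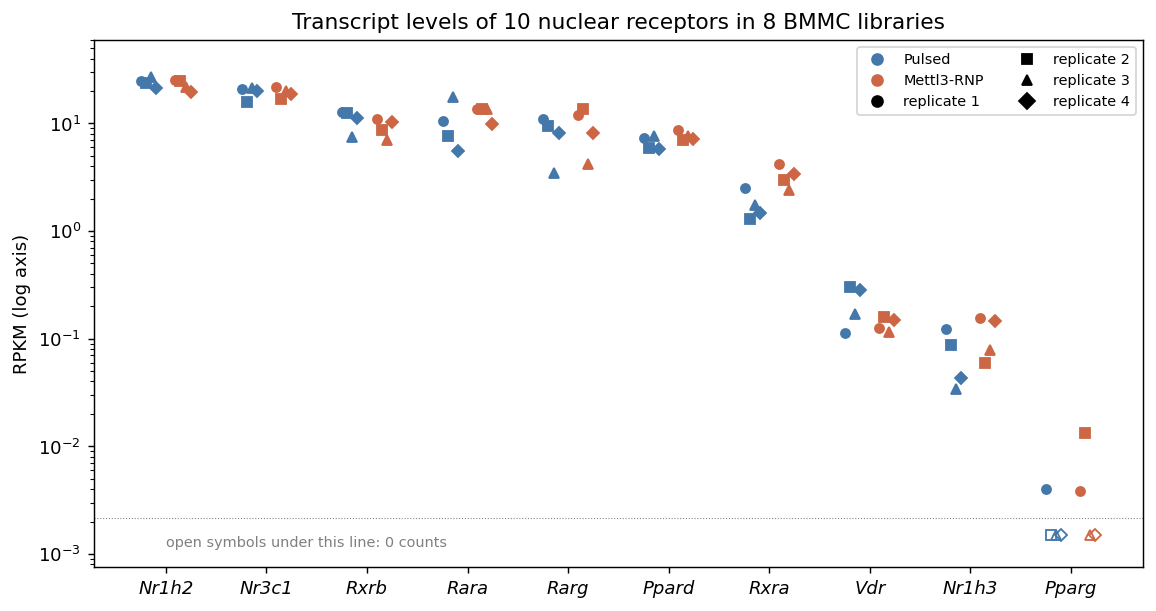
RPKM of the 10 receptors on a log axis, ordered by the Pulsed mean, with 1 symbol per library, the colour giving the group and the shape the replicate number. Nr1h2 and Nr3c1 lie highest, Rxra lies between Ppard and Vdr, and Pparg has counts in 3 of 8 libraries, the open symbols under the dotted line marking 0 counts.

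Within families the levels were unevenly divided. Nr1h2 made up 99.7% ± 0.162 of summed LXR RPKM in Pulsed, and Ppard close to all of PPAR RPKM, with Ppara at 1 count in the Pulsed libraries and 0 in Mettl3-RNP. The RARs were Rara and Rarg, since Rarb had no count in any of the 8 libraries. Pooled over the 8 libraries, 0 counts allow a Rarb level of up to 0.0101 CPM, counting error alone considered.

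Rxra, on chromosome 2 from 27566452 to 27653330 on the plus strand (GRCm39), had the lowest per-length level of the 4 RXR and RAR members. Its CPM values were 17.2, 8.87, 12.04 and 10.2 in Pulsed 1 to 4 and 28.7, 20.7, 16.5 and 23.1 in Mettl3-RNP 1 to 4. Each Mettl3-RNP library was above the Pulsed library of the same number, and the groups overlapped only in that Mettl3-RNP 3 was under Pulsed 1. The log2 differences within pairs were 0.74, 1.22, 0.46 and 1.18, and the fitted log2 difference was 0.90 (SE 0.142), a fold of 1.87. No other annotated gene shares exon bases with Rxra on either strand.

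The other RXR, Rxrb, on chromosome 17 from 34250759 to 34257376 on the plus strand, stood at 55.3, 53.9, 32.4 and 48.1 CPM in Pulsed 1 to 4 and at 47.5, 37.1, 30.2 and 44.1 CPM in Mettl3-RNP 1 to 4. It was lower in Mettl3-RNP in each of the 4 pairs, but the groups overlapped and the log2 difference of -0.25 (SE 0.0897) did not pass the test (adjusted p = 0.155, edgeR over 14942 genes). With removal of replicate means before a limma test the adjusted p was 0.0207, in a setting that called 30.5% of all genes.

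The RXR pool was also described as a sum. Rxra, Rxrb and Rxrg together gave 13.2 ± 2.08 RPKM in Pulsed and 12.6 ± 2.41 RPKM in Mettl3-RNP, higher in 1 of 4 pairs. Without Rxrg the sum was 12.7 ± 2.57 and 12.4 ± 2.50 RPKM, higher in 2 of 4 pairs, pair 3 being the one that differed. The level difference of Rxra within pairs was between 0.655 and 1.88 RPKM, and that of Rxrb between -3.89 and -0.505 RPKM. Rxra made up 16.1, 9.14, 16.5 and 11.6% of summed RXR RPKM in Pulsed 1 to 4 and 27.5, 25.5, 24.9 and 24.5% in Mettl3-RNP 1 to 4. The shares did not overlap, with means of 13.3% ± 3.59 and 25.6% ± 1.33 (SD, n = 4). Because the share contains the value that chose Rxra, it carries no test.

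Rxrg, the RXR typical of muscle and nervous tissue, completed the family with 12.6% of RXR RPKM in Pulsed 3 and at most 2.68% in any other library. Its levels were 0.843, 1.72, 6.73 and 0.766 CPM in Pulsed 1 to 4 and 0.161, 0.978, 1.30 and 0.740 CPM in Mettl3-RNP 1 to 4. It was lower in all 4 pairs, but the groups overlapped and the log2 difference of -1.36 (SE 0.437) did not pass the edgeR test (adjusted p = 0.119).

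**Figure D2:**
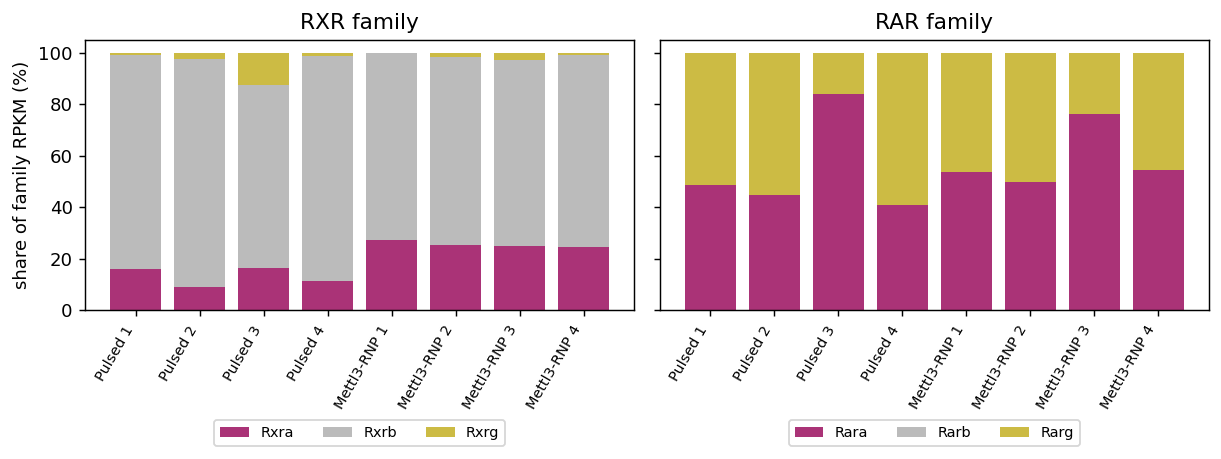
Share in percent of the summed RPKM of the RXR family (left) and of the RAR family (right) held by each gene, 1 stacked bar per library. The Rxra share is at most 16.5% in Pulsed and at least 24.5% in Mettl3-RNP, and the Rara share is highest in the libraries numbered 3 of both groups.

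Of the 8 members tested beside Rxra, none passed an adjusted p of 0.05 in edgeR as higher in Mettl3-RNP, against 2.35% of all genes tested, and none as lower, against 1.39%. DESeq2 and limma-voom also called none of the 8. Before adjustment the p was under 0.05 for Rxrb (0.0258), Rarg (0.0433) and Ppard (0.0293) in the same edgeR fit, where 11.8% of all genes were higher and 10.7% lower at that unadjusted level. For all 10 members the CPM ranges of the groups overlapped, whereas 3.24% of genes tested had groups that did not overlap.

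Rara, the RAR that is prominent in blood cell differentiation, lies on chromosome 11 from 98818612 to 98865768 on the plus strand, where 3 predicted genes on the opposite strand share exon bases with it. Its CPM values were 65.7, 48.4, 111.8 and 35.2 in Pulsed 1 to 4 and 86.3, 84.9, 84.8 and 61.8 in Mettl3-RNP 1 to 4. Pairs 1, 2 and 4 were higher in Mettl3-RNP, by 0.39, 0.81 and 0.81 on the log2 scale, whereas pair 3 ran the other way at -0.40. The fitted log2 difference of 0.40 (SE 0.190) did not pass the edgeR test (adjusted p = 0.257). The call depended on the setting, with a log2 difference of 0.67 and an adjusted p of 0.0325 without replicate 3, and of 0.42 and 0.0286 with all pairs when every gene with at least 1 count was kept.

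Rarg, the RAR best known from epithelium and from blood stem cells, is a minus-strand gene at chromosome 15, 102143373 to 102165952. It stood at 50.9, 43.6, 15.9 and 37.7 CPM in Pulsed 1 to 4 and at 55.0, 62.6, 19.4 and 37.98 CPM in Mettl3-RNP 1 to 4. It was higher in Mettl3-RNP in all 4 pairs, by as little as 0.01 on the log2 scale in pair 4, and the groups overlapped widely. The log2 difference was 0.23 (SE 0.0966, adjusted p = 0.208, edgeR).

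Ppard, which regulates fatty acid oxidation, lies on chromosome 17 from 28451674 to 28520448 on the plus strand. Its CPM values were 54.4, 44.6, 57.4 and 43.4 in Pulsed 1 to 4 and 65.8, 52.2, 57.3 and 53.9 in Mettl3-RNP 1 to 4. It was higher in 3 pairs and level in pair 3, with overlapping groups and a log2 difference of 0.20 (SE 0.0766) that did not pass the edgeR test (adjusted p = 0.167).

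The receptors with the highest levels gave the smallest differences. Nr1h2, a minus-strand gene at chromosome 7, 44199036 to 44203406, lay between 73.1 and 92.5 CPM in Pulsed and between 67.2 and 87.2 CPM in Mettl3-RNP, with a log2 difference of -0.09 (SE 0.0794, adjusted p = 0.580, edgeR). Nr3c1, a minus-strand gene at chromosome 18, 39543598 to 39652474, lay between 124.8 and 168.4 CPM in Pulsed and between 133.9 and 170.2 CPM in Mettl3-RNP. Its log2 difference was -0.01 (SE 0.0692, adjusted p = 0.974, edgeR), and its sign turned under other library scalings. For each of these genes 2 of 4 pairs were higher in Mettl3-RNP.

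The low receptors were measured with few reads. Vdr, on chromosome 15 from 97752306 to 97808511, had 23, 66, 39 and 59 counts in Pulsed 1 to 4 and 27, 39, 20 and 30 counts in Mettl3-RNP 1 to 4, a log2 difference of -0.57 (SE 0.351, adjusted p = 0.394, edgeR). Nr1h3, on chromosome 2 from 91014394 to 91033417, had 22, 17, 7 and 8 counts in Pulsed 1 to 4 and 29, 13, 12 and 26 counts in Mettl3-RNP 1 to 4, a log2 difference of 0.65 (SE 0.529, adjusted p = 0.525, edgeR). For both genes the groups overlapped and the error of the difference was a large part of the difference. Nr1h3 shares exon bases with Acp2 on the opposite strand and with a predicted gene on its own, so its few reads cannot be assigned to it with certainty.

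**Figure D3:**
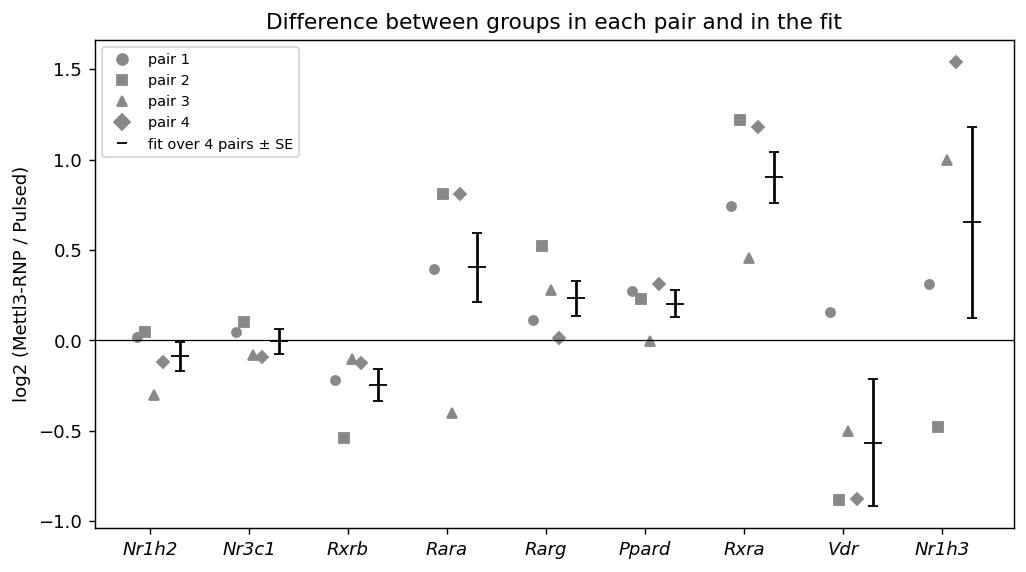
Log2 difference in CPM between Mettl3-RNP and Pulsed for the 9 members tested, with 1 grey symbol per pair and the fitted value with its standard error in black. All 4 pairs of Rxra lie above 0, all 4 pairs of Rxrb below it, and pair 3 of Rara falls on the opposite side from its other pairs.

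Differences between replicate numbers were not used to choose the members, and they were tested separately. Of the 9 members tested, 5 varied with the replicate number (Rarg, Rxrb, Rara, Nr3c1 and Rxra), or 55.6% against 53.9% of all genes. As a group the members thus did not stand apart from all genes, and the values that follow describe single genes. The largest spread was in Rarg, whose mean log2 CPM over both groups was 4.14 for replicate 3 against 5.24 to 5.73 for the other numbers (adjusted p = 0.000286, edgeR). Rara was highest in replicate 3, at 6.61, and lowest in replicate 4, at 5.55 (adjusted p = 0.0415, edgeR).

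The RAR pool thus differed in make-up between cultures in both groups. Rara held 83.8% of RAR RPKM in Pulsed 3 and 76.3% in Mettl3-RNP 3, and between 40.7 and 54.5% in the other 6 libraries. Summed Rara and Rarg, at 18.4 ± 3.67 RPKM in Pulsed and 22.1 ± 4.93 RPKM in Mettl3-RNP, did not show a comparable gap.

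Rxrb was also lowest in replicate 3, at a mean log2 CPM of 4.97 against 5.48 to 5.68 (adjusted p = 0.00937, edgeR). Nr3c1 was lowest in replicate 2, at 7.01, with the other numbers at 7.24 to 7.39 (adjusted p = 0.0424, edgeR). Rxra was highest in replicate 1, at 4.48 against 3.77 to 3.94 (adjusted p = 0.0462, edgeR), and without that number its adjusted p was 0.682. The calls for Rxrb and Rarg were lost without replicate 3, at adjusted p of 0.685 and 0.0679, that for Rara without replicate 4, at 0.111, that for Rxra also without replicate 2, at 0.0504, and that for Nr3c1 without any number, at 0.109 to 0.803.

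**Figure D4:**
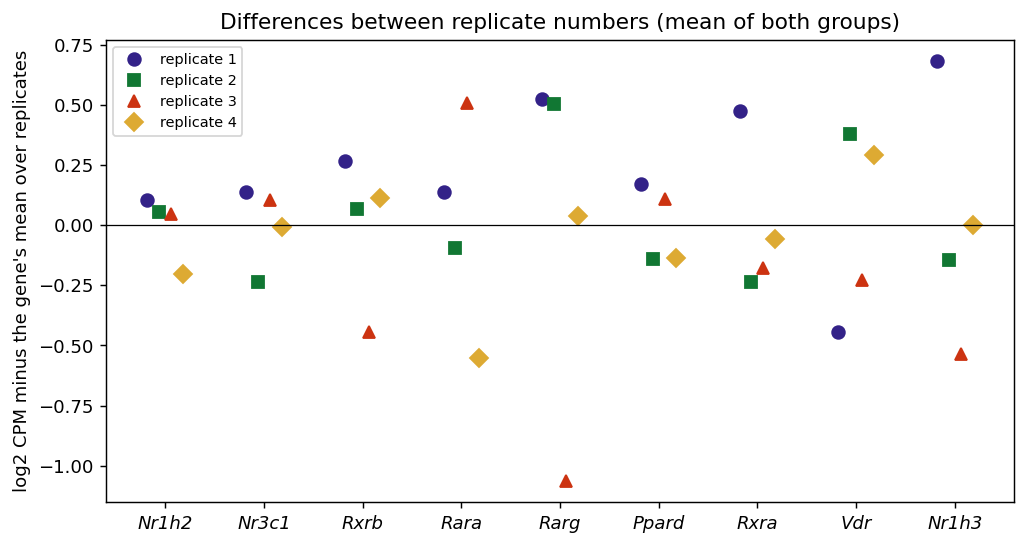
Mean log2 CPM of both groups for each replicate number, as the difference from the mean over the 4 numbers, for the 9 members tested. Replicate 3 lies far below the others for Rarg and highest for Rara.

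Because Mettl3 methylates adenosines in a short consensus, the letters GGACT (RNA GGACU, sense strand alone) were counted in the canonical transcript of each member. The match nearest to the stop codon in each RXR and RAR transcript is shown, since it is near that codon that N6-methyladenosine is known to be most frequent, with GGACT in capitals and 5′ to 3′ on the transcript strand, from GENCODE release 39 on GRCm39.
Rxra: gtggcctgagGGACTtggagctgaacc
Rxrb: tcactgaggaGGACTtgagcctgggca
Rara: gacccaagatGGACTgccctcttccgg
Rarg: cagtcccgcgGGACTgctgcacaccta

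These windows lie after the coding sequence, in the last exon, at chr2:27650540-27650566 (Rxra), chr17:34256526-34256552 (Rxrb), chr11:98864629-98864655 (Rara) and chr15:102144254-102144280 (Rarg). The match lies 850 bases past the end of the coding sequence in Rxra, and 31, 176 and 189 bases past it in Rxrb, Rara and Rarg. Rxra held 9 matches in 5473 bases, 7 of them after the coding sequence, or 1.64 per kilobase. Rara held 9 matches, or 2.70 per kilobase, Rxrb 3, or 1.13 per kilobase, and Rarg 2, or 0.735 per kilobase. Over the other members the density ran from 0.471 per kilobase in Nr1h3 to 1.90 in Nr1h2. Of 12056 protein-coding genes tested, 93.8% held at least 1 match, with a median of 1.04 per kilobase, and the Rxra density was above that of 81.2% of them. Rara, at 97.2%, Nr1h2, at 88.7%, and Vdr, at 86.7%, had higher densities than Rxra. A match is a string of letters and not a measured methylated site, and methylation was not analysed here.

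The genes whose log2 CPM was most like that of Rxra over the 8 libraries were Kank2 (Pearson r 0.967), Tgfb1i1 (0.965), Il12rb1 (0.961), Micall1 (0.957) and Mir503hg (0.950), with 11983 genes compared, those averaging 1 CPM or more. After subtraction of each replicate number's mean they were Crk (0.998), Mief1 (0.998), Klhl6 (0.997), Cd81 (0.996) and Sorbs3 (0.996). The points share libraries. Subtraction leaves each pair with values of equal size and opposite sign, so the second measure rests on the 4 pair differences. For Rxra these hold the group difference that chose it, so this r mainly restates which genes rose or fell in Mettl3-RNP. The first measure also holds the group difference. Log2 differences were 0.96 for Kank2, 0.81 for Tgfb1i1, 0.71 for Il12rb1, 0.298 for Micall1 and 0.82 for Mir503hg. Among the members, the r after subtraction was 0.94 for Ppard, 0.84 for Rara, 0.75 for Rarg, 0.04 for Nr3c1, -0.33 for Nr1h2, -0.86 for Vdr and -0.88 for Rxrb. Without subtraction it was 0.77 for Ppard, 0.49 for Rara, 0.36 for Rarg, 0.31 for Nr3c1, -0.04 for Nr1h2, -0.78 for Vdr and -0.10 for Rxrb.

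Partner proteins, ligand supply and target genes of the receptors were taken from 11 lists of 137 genes, of which 96 were tested. None of the 96 passed as higher in Mettl3-RNP, against 2.35% of all genes tested. As lower 3 passed in the edgeR fit, 3.12% of the list genes against 1.39% of all genes. In either direction 3.74% of all genes passed. The median log2 difference was -0.02 against -0.0013 over all genes. Before adjustment 8 of the 96 were higher and 24 lower at a p under 0.05, where 11.8% and 10.7% of all genes were. After adjustment DESeq2 called 3 of the 96 higher and 14 lower, against 5.94% and 3.76% of all genes. With limma-voom none were higher and 5 lower, against 2.67% and 1.63%. By each of these measures a larger share of list genes than of all genes was lower, and a smaller share higher. The lists were chosen with results known, so this is a description.

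Of the retinoid supply genes, 9 of 16 were tested and 1 passed, as lower, against 1.39% of all genes. Fabp5, a lipid chaperone known to carry retinoic acid and fatty acids to PPAR delta, stood at 45.3, 130.4, 124.6 and 67.1 CPM in Pulsed 1 to 4 and at 30.1, 41.6, 49.3 and 32.5 CPM in Mettl3-RNP 1 to 4. It fell in all 4 pairs and the groups overlapped only between Pulsed 1 and Mettl3-RNP 3. The log2 difference was -1.16 (SE 0.155, adjusted p = 0.0165, edgeR), and without replicate 2 the adjusted p was 0.0588. Rdh11, a retinol dehydrogenase, was at 15.4 ± 1.98 RPKM in Pulsed and 11.8 ± 1.57 RPKM in Mettl3-RNP (adjusted p = 0.0785, edgeR). Rdh11 was lower in all 4 pairs and its groups did not overlap, as in 3.24% of all genes tested.

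Known RAR targets were tested in 7 of 10 cases and none passed. The strongest expressed, Tgm2, a transglutaminase, ran from 32.9 CPM in Pulsed 1 to 608.4 CPM in Pulsed 3 and from 7.53 CPM in Mettl3-RNP 1 to 260.4 CPM in Mettl3-RNP 3. It was lower in all 4 pairs, with a log2 difference of -1.04 (SE 0.248, adjusted p = 0.0623, edgeR), and it varied with the replicate number (adjusted p = 0.000187, edgeR), highest in replicate 3 of both groups, as were the glucocorticoid targets Errfi1 and Zfp36, at 1770 and 353.2 CPM in Pulsed 3. Hic1, a transcriptional repressor, was at 16.0 ± 4.37 and 15.2 ± 5.06 RPKM. Dhrs3, which returns retinal to retinol, was at 1.44 ± 1.48 and 2.56 ± 1.55 RPKM with 4 of 4 pairs higher (adjusted p = 0.112, edgeR).

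Of the LXR targets 11 of 12 were tested and none passed, with a median log2 difference of -0.17. Of the 11 values 3 were above 0, against 7443 of 14942 over all genes. Before adjustment 1 was higher and 5 were lower at a p under 0.05 in the edgeR fit. After adjustment 1 was lower with DESeq2. Without replicate 1, 3 were lower, against 0.964% of all genes, and none were without replicate 2, 3 or 4. Scd2, a fatty acid desaturase, was at 109.2 ± 51.3 RPKM in Pulsed and 75.3 ± 47.9 RPKM in Mettl3-RNP (adjusted p = 0.183, edgeR). Arl4c was at 38.1 ± 24.9 and 37.5 ± 17.4 RPKM, and Mylip, the ligase that degrades the LDL receptor, at 29.1 ± 11.6 and 25.3 ± 7.63 RPKM. Among the enzymes of oxysterol and sterol supply 2 of 6 were tested and none passed. Sult2b1 was at 0.137 ± 0.0301 and 0.158 ± 0.0314 RPKM, and Cyp27a1 was too low to test, at 0.0138 RPKM in Pulsed.

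PPAR targets of fatty acid oxidation were tested in 11 of 14 cases and none passed, with a median log2 difference of 0.05. Acadvl was at 12.8 ± 1.61 RPKM in Pulsed and 12.4 ± 0.918 RPKM in Mettl3-RNP, and Hadha at 12.3 ± 1.71 and 12.6 ± 0.839 RPKM. In the vitamin D list 1 of 6 genes, Spp1, was tested, at 0.618 ± 0.827 and 0.485 ± 0.335 RPKM. S100g and Cyp27b1 were at 0.356 and 0.220 RPKM in Pulsed and did not enter the test.

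Of the glucocorticoid targets 14 of 15 were tested and 1 passed, as lower, against 1.39% of all genes. The median log2 difference was -0.25 against -0.0013 over all genes. Of the 14 values 4 were above 0, against 7443 of 14942 over all genes. Mt1, a metallothionein that glucocorticoids and zinc both induce, stood at 121.7, 86.3, 178.3 and 46.2 CPM in Pulsed 1 to 4 and at 63.0, 60.7, 111.7 and 27.2 CPM in Mettl3-RNP 1 to 4. It fell in all 4 pairs although the groups overlapped, from 46.2 to 178.3 CPM in Pulsed and from 27.2 to 111.7 CPM in Mettl3-RNP. Its log2 difference was -0.72 (SE 0.0853, adjusted p = 0.0117, edgeR). Before adjustment 1 of the 14 targets tested was higher and 4 were lower at a p under 0.05 in the same edgeR fit. Cebpd, a transcription factor named after its values were seen, was higher, at 4.83, 2.14, 4.94 and 2.38 CPM in Pulsed 1 to 4 and 5.81, 6.03, 8.82 and 5.81 CPM in Mettl3-RNP 1 to 4. Its groups did not overlap, as in 3.24% of all genes tested, and the log2 difference of 0.96 (SE 0.211) did not pass the edgeR test (adjusted p = 0.0515). Errfi1, a brake on EGF receptor signalling, was at 82.0 ± 144.8 and 49.6 ± 82.5 RPKM, and Zfp36, which destabilises AU-rich mRNAs, at 35.4 ± 45.1 and 25.8 ± 27.1 RPKM, without a difference that passed the test (adjusted p = 0.227 and 0.978, edgeR).

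Genes that fold the glucocorticoid receptor or convert its ligand were tested in 6 of 7 cases, and all 6 log2 differences were below 0, with a median of -0.30. Over all genes 7443 of 14942 were above 0. In edgeR 1 of the 6 passed as lower, against 1.39% of all genes. DESeq2 called 4 lower, against 3.76%, and limma-voom 2, against 1.63%. In edgeR without replicate 1, 2 or 4 none passed. Ptges3, the p23 cochaperone of Hsp90, stood at 81.8, 111.4, 134.5 and 134.8 CPM in Pulsed 1 to 4 and at 60.5, 86.1, 111.3 and 88.2 CPM in Mettl3-RNP 1 to 4. It fell in all 4 pairs with overlapping groups, by a log2 difference of -0.42 (SE 0.0763, adjusted p = 0.0318, edgeR), and its adjusted p was 0.0932, 0.121 and 0.204 without replicates 1, 2 and 4. The Hsp90 genes Hsp90ab1, at 452.7 ± 109.7 and 420.6 ± 103.9 RPKM, and Hsp90aa1, at 101.1 ± 28.2 and 83.6 ± 28.2 RPKM, did not pass the test (adjusted p = 0.434 and 0.0589, edgeR).

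None of the cofactors tested passed, and their levels varied widely. Of 9 corepressors tested the 3 highest were Ncor1, at 24.5 ± 3.36 and 23.0 ± 4.68 RPKM, Gps2, at 19.8 ± 4.60 and 18.8 ± 2.88 RPKM, and Sin3a, at 13.1 ± 2.23 and 13.2 ± 3.53 RPKM. Of 11 coactivators tested they were Ncoa3, at 23.4 ± 3.99 and 22.9 ± 3.15 RPKM, Kat2b, at 13.2 ± 2.45 and 13.6 ± 3.02 RPKM, and Ncoa6, at 13.0 ± 2.41 and 13.6 ± 1.87 RPKM. Median log2 differences were -0.02 and 0.07.

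Of 36 other nuclear receptors 19 were tested and none passed, with a median log2 difference of 0.04, and 10 of 19 varied with the replicate number, 52.6% against 53.9% of all genes. Pgr, the progesterone receptor, was the highest of them at 14.2 ± 3.04 RPKM in Pulsed, a level above the Rxrb mean, and 15.3 ± 0.524 RPKM in Mettl3-RNP. Esrra, a regulator of mitochondrial genes, was at 8.62 ± 0.935 and 8.45 ± 0.669 RPKM, and Nr2c2, the orphan receptor TR4, at 5.78 ± 0.833 and 5.62 ± 0.998 RPKM. Their adjusted p-values were 0.566, 0.869 and 0.745 in the edgeR fit.

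**Figure D5:**
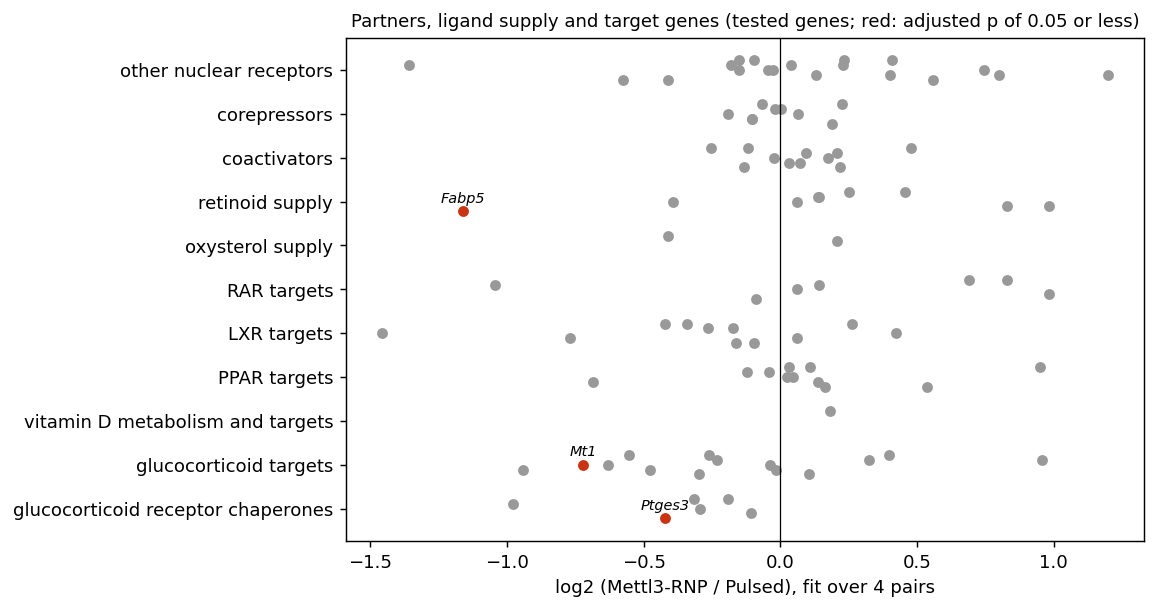
Fitted log2 difference between Mettl3-RNP and Pulsed for each tested gene of the 11 lists, with genes at an adjusted p of 0.05 or less in red. Fabp5, Mt1 and Ptges3 are the 3 red points and all lie below 0.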

How the data were processed

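The authors checked reads with FastQC 0.11.9, aligned them to GRCm39 with HISAT2 2.2.1 and counted them per gene with featureCounts 2.0.1. The deposited counts are raw read counts per Ensembl gene, 1 table per library, and the strand setting of the counting is not given in the sources used here. Names were taken from GENCODE release 39, which named 56017 of 56748 identifiers. Sequences and positions are from the same release.

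The members and lists were chosen with earlier results of these data known. The genes named are the 10 members, Mettl3, in each list those past the threshold and the 3 with the highest Pulsed RPKM, and the 5 genes most like Rxra by each measure. Rxrg, Cebpd and the cell markers named with a difference were added after their values were seen. Some genes that this rule names are not reported here.

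Counts were fitted with edgeR 4.0.16 in R 4.3.3 (TMM library sizes, filterByExpr, quasi-likelihood test, group plus replicate number as a block, all 8 libraries), with Benjamini-Hochberg adjustment over the 14942 genes that passed the filter. Replicate numbers were tested by an F test in the same fit. RPKM used exon unions and TMM library sizes, so a gene whose isoforms differ widely in length has a lowered value. Scripts were tested on simulated data. No library pair within a group agreed within sampling noise.

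Deviations from group means correlated between libraries with the same number at 0.825, 0.489, 0.879 and 0.765 over 11984 genes of at least 1 CPM, and at 0.534, 0.0738, 0.735 and 0.580 over all genes tested, against at most 0.183 and 0.249 for other numbers. The labels give the numbers but no mouse for each. Without strand information, reads of overlapping genes on opposite strands cannot be told apart. Alternatives were DESeq2 1.42.0, limma 3.58.1 (voom, and removal of replicate means before limma-trend), other scalings and filters, and leaving out each pair.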

Additional observations from a re-analysis of the deposited data

Results flagged for a closer look

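In groups of 4 libraries, 2 member values lay apart from the other 3, where chance flags about 1 in 20 groups and 20 groups were examined. Rara in Mettl3-RNP 4 was at 61.8 CPM, whereas the other Mettl3-RNP libraries were at 84.8 to 86.3 CPM. Pparg in Pulsed 1 was at 0.0281 CPM, which is 1 count, with 0 counts in the other Pulsed libraries. A single count beside 0 counts is always flagged, so the Pparg flag cannot be set against that chance rate.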

How the results depend on the processing

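Without the replicate block no gene of the series passed, so 0 members and 0 list genes did, and Mettl3 kept its difference (-1.31) with an adjusted p of 0.744. Under the other settings the Rxra difference ran from 0.79 to 1.04. Members past the threshold, a count that holds Rxra by its selection, numbered 1. They were 4 with replicate means removed before limma, 2 (with Rara) when every gene with at least 1 count was kept, and 0 to 2 when a pair was left out. Those varying with the replicate number were 5, 4 with DESeq2 size factors (Nr3c1 lost, 0.0823), library size alone (Rara lost, 0.0895) or at least 1 count (Nr3c1 lost, 0.575), as adjusted p, and 2 to 3 without a pair. List genes past the threshold were 3, none higher. They were 17 (3 higher, 14 lower) with DESeq2, 5 (all lower) with limma-voom, 33 (9 and 24) with replicate means removed, 7 (1 and 6) with the newer edgeR estimate of the spread, added after seeing the data because the planned older estimate is this version's default, 19 (6 and 13) with at least 1 count, and 9 (1 and 8) with at least 10 counts in every library. With DESeq2 size factors 1 was higher, and without a pair 1 to 9 passed, 0 to 2 higher and 1 to 7 lower. These settings called from 0.174% of all genes (without replicate 2) to 30.5% (replicate means removed). The Nr3c1 difference turned to 0.00184 with DESeq2, 0.00183 with its size factors, 0.0272 with library size alone, 0.0102 with at least 1 count, and ran from -0.0585 to 0.0343 without a pair. The cause of these changes was not tested. With the longest transcript as length, Nr1h2, Nr3c1, Rara, Rarg, Ppard and Nr1h3 levels moved beyond their spread. Rxrb, Rarg and Ppard passed only with replicate means removed before limma, and Pparg, Vdr and Nr1h3 are limited by counts.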

Other observations

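Some genes outside the naming rule were singled out after their values were seen. Cpt1a, the mitochondrial gate of fatty acid oxidation and a PPAR target, stood at 23.1, 17.8, 15.0 and 19.8 CPM in Pulsed 1 to 4 and at 24.1, 35.4, 59.0 and 33.7 CPM in Mettl3-RNP 1 to 4. The groups did not overlap, as in 3.24% of all genes tested, and the log2 difference of 0.95 (SE 0.260) did not pass the edgeR test (adjusted p = 0.0824). Angptl4, of the same PPAR list, was lower in all 4 pairs, with a log2 difference of -0.69 (SE 0.227, adjusted p = 0.126, edgeR). Scd1, an LXR target, was at 160.5, 180.5, 93.7 and 210.5 CPM in Pulsed 1 to 4 and at 210.1, 42.6, 13.8 and 81.4 CPM in Mettl3-RNP 1 to 4, lower in 3 of 4 pairs (adjusted p = 0.108, edgeR). Esr1, the estrogen receptor alpha, was between 23.5 and 30.6 CPM in Pulsed and between 26.3 and 36.3 CPM in Mettl3-RNP, higher in 4 of 4 pairs (adjusted p = 0.116, edgeR).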
